A study of Mus musculus with 12 samples.

Results

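Expression of the nuclear genes for respiratory complex III, complex IV and cytochrome c was described across 4 mouse fat depots. The members were taken by symbol from a table of read counts: every gene whose symbol starts with Uqcr or with Cox followed by a digit, and Cyc1 and Cycs. This gave 37 of the 23420 genes in the table. They are 8 subunits of complex III, 17 subunits of complex IV, Cyc1 and Cycs, 9 assembly factors of complex IV and the supercomplex factor Cox7a2l. Each depot had 3 RNA-seq libraries. Brown fat was taken from the interscapular pad (iBAT) and from the pad above the clavicle (scBAT), and white fat from the groin (inguinal, iWAT) and from beside the epididymis (eWAT). All 4 groups were male C57BL/6 mice, 8 weeks old, kept at ambient temperature, with no treatment and no engineered allele named. The labels do not say whether the libraries of a depot came from separate animals, so the p-values measure the spread between these libraries, which may be technical.

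Complex III, ubiquinol-cytochrome c reductase, takes electrons from ubiquinol and hands them to cytochrome c, a small soluble carrier in the space between the mitochondrial membranes. Complex IV, cytochrome c oxidase, passes them on to oxygen, and both complexes pump protons. Brown adipocytes are rich in mitochondria and use UCP1 to release the proton gradient as heat, whereas white adipocytes store lipid and hold fewer mitochondria. Some complex IV subunits exist as pairs: a form made in most tissues, and a partner known from heart and skeletal muscle (Cox7a1, Cox8b, Cox6a2), from lung and hypoxic cells (Cox4i2) or from testis (Cox6b2).

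The bases upstream of 5 genes from these pairs are shown first, because Cox7a1 and Cox8b had the largest differences between brown and white fat and their common partners much smaller ones. A promoter was available for 26 of the 37 members, as 250 bases before and 50 after the RefSeq start on GRCm38.p6. The 250 bases before the start are printed 5′ to 3′ on the strand of the gene. Capitals mark matches, on either strand, to the letters searched. Cox7a1 lies at chr7:30183921-30184170 on the plus strand, and its capitals are ATTGG, the reverse complement of CCAAT, beginning 137 and 74 bases before the start. Cox7a2 lies at chr9:79759854-79760103 on the minus strand, with GGGCGG beginning 44 bases before the start. Cox8b lies at chr7:140900447-140900696 on the minus strand, with CAGCTG beginning 19 bases before the start. Cox8a lies at chr19:7217617-7217866 on the minus strand, with ATTGG beginning 171 bases before the start. Cox6a1 lies at chr5:115348959-115349208 on the minus strand, and its capitals hold 2 NRF1 matches. They also hold GGGCGG and the ETS core, each on the other strand, and a CCAAT. On GRCm38 (GENCODE M21), the 3 muscle-type isoforms are protein-coding genes of chromosome 7: Cox7a1 spans chr7:30184144-30186078, Cox8b chr7:140898945-140900446 and Cox6a2 chr7:128205435-128206387. The GENCODE starts of Cox7a1, Cox7a2 and Cox6a1 lie inside the windows printed here.
Cox7a1: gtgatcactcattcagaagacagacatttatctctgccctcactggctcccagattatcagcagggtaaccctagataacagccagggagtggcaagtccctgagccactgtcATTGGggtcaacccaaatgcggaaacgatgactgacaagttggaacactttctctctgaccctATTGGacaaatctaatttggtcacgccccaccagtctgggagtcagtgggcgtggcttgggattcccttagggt
Cox7a2: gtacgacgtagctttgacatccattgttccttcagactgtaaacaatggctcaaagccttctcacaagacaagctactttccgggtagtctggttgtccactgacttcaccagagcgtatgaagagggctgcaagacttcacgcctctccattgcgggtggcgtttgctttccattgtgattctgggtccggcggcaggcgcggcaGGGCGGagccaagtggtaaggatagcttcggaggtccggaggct
Cox8b: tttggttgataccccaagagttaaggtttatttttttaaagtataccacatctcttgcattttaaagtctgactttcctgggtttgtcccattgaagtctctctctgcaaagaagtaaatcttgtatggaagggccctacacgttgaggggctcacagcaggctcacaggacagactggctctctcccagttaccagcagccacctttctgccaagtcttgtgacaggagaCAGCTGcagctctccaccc
Cox8a: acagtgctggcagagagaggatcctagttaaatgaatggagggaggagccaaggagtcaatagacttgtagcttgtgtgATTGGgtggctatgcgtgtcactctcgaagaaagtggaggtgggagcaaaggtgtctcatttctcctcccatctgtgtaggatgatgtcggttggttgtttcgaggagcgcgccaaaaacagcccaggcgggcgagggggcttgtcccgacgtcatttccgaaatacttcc
Cox6a1: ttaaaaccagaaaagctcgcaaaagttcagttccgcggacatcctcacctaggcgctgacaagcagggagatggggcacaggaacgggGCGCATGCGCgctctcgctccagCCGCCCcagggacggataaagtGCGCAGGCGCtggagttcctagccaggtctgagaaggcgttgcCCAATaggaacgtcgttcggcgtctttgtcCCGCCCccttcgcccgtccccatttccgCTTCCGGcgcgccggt

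The letters CCGGAAG, the core of ETS factor motifs, stood in the 300-base windows of 10 of the 26 members (38.5%), against 9.93% of 27025 genes with such a window. The members with it were Cox10, Cox14, Cox15, Cox16, Cox20, Cox6a1, Cox6b1, Cox8a, Uqcr11 and Uqcrh. Cox7a1, Cox7a2 and Cox8b did not hold it, while Cox8a, the partner of Cox8b, did. The NRF1 motif, whose matches are the longest capital runs of Cox6a1, stood in 2 members (7.7% against 5.19%), Cox6a1 and Uqcrc1. The letters AAGGTCA, bound by estrogen-related receptors, stood in 0 members, against 5.38% of all windows. CCAAT was in 12 members (46.2% against 41.1%) and GGGCGG in 12 (46.2% against 38.2%). TATAAA was in 3 (11.5% against 15.7%), Cox10, Cox7b2 and Cox8b, and CAGCTG in Cox8b alone (3.8% against 18.3%). In Cox8a the ETS core does not lie wholly within the bases printed above. In Cox8b TATAAA lies wholly past them, among the 50 bases after the start. Matches on both strands were counted, the motifs may overlap each other, and a match describes the letters of the window and no binding.

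Total counts ran from 17159401 to 29262554 per library. After a filter on low counts, 14898 genes were tested, 35 members among them, and the same 35 passed in the brown and in the white libraries taken alone. The labelled tissues fitted their markers in that UCP1 transcript (Ucp1) was at 1559 to 2399 CPM (counts divided by the TMM-adjusted library size, the unit of all levels here) in brown libraries and 15.7 to 87.7 CPM in white ones. Several libraries stood apart. iWAT libraries 1 and 3 had summed levels of 8 B cell markers of 1423 and 1950 CPM, against 81.6 in iWAT library 2 and at most 39.5 elsewhere, and 6 T cell markers summed to 705 and 1088 CPM against 47.6 in library 2. The 16 skeletal muscle markers summed to 579 to 2483 CPM in iBAT, 2254 to 7450 in scBAT, 77.9 to 140 in iWAT, and 149 to 311 for eWAT.

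Together the 37 genes took 1.58% ± 0.0652 (SD, n = 3) of all counts in iBAT and 1.45% ± 0.109 in scBAT. In white fat they took 0.413% ± 0.0990 in iWAT and 0.410% ± 0.0389 in eWAT. Between brown and white fat, 34 of the 35 tested members were called higher in brown and 0 lower (edgeR quasi-likelihood test, Benjamini-Hochberg adjusted p under 0.05, brown as the mean of both brown depots). This contrast called 69.4% of all tested genes, 31.3% higher and 38.1% lower. The median log2 difference of the 35 members was 2.08, a 4.23-fold level, beside a median of -0.11 over all tested genes. In 32 of the 35, all 6 brown libraries lay above all 6 white ones, which held for 23.3% of all tested genes. In bulk tissue, fewer cells of a type and less RNA per cell cannot be told apart. All 6 brown adipocyte markers also lay higher in every brown library, and whether cell makeup takes part in these differences was not tested.

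**Figure D1:**
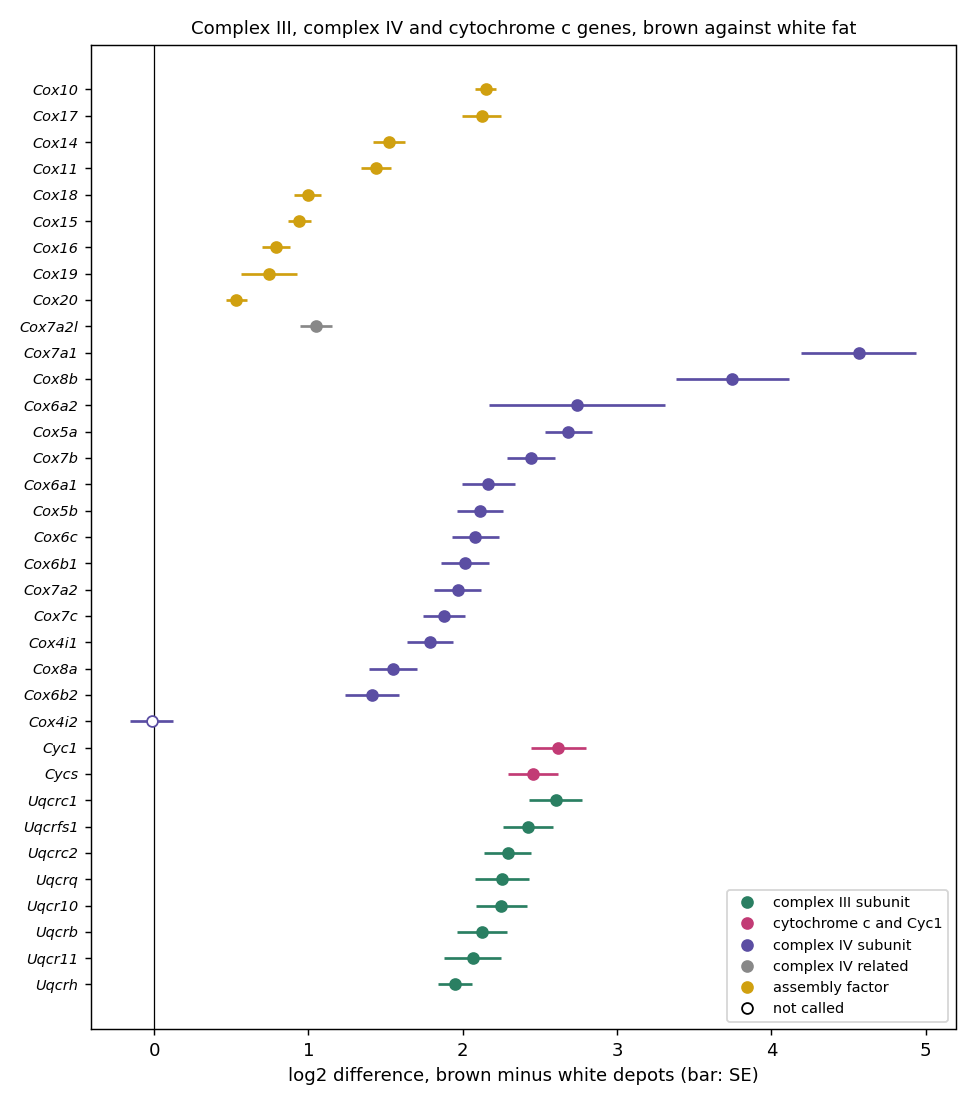
Log2 difference between brown and white fat for the 35 tested members, by role, with bars for the standard error; filled points passed the test. Cox7a1 and Cox8b lie farthest to the right at 4.56 and 3.74, the complex III subunits lie between 1.95 and 2.60, the assembly factors between 0.53 and 2.15, and Cox4i2 lies at -0.02.

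All 8 complex III subunits were higher in brown fat, within a narrow range of log2 differences from 1.95 to 2.60 (median 2.25). Uqcrc1, a core subunit facing the matrix, had 1719, 1770.3 and 1596 CPM in the iBAT libraries and 1559, 1388 and 1739 in scBAT. Its white libraries had 210.4, 367 and 198 CPM in iWAT and 277, 314 and 245 in eWAT. The lowest brown library was well above the highest white one, and the log2 difference was 2.60 ± 0.17 (SE), with an edgeR adjusted p of 4.26e-07. Uqcrfs1, the Rieske iron-sulfur protein that takes the first electron from ubiquinol, had 924, 1003 and 929.8 CPM in iBAT and 859, 828 and 969.9 in scBAT. It had 139.5, 238 and 125 CPM in iWAT and 171, 196 and 159 in eWAT, again with no overlap, for a log2 difference of 2.42 ± 0.16 (adjusted p = 4.94e-07). Uqcrh, the hinge protein at the cytochrome c docking side, had the smallest difference of the group, 1.95 ± 0.11 (adjusted p = 1.86e-07). It had 585, 633 and 617 CPM in iBAT, 551, 545 and 622 in scBAT, 132, 194 and 142 in iWAT, and 147, 167 and 138 for eWAT, and no libraries overlapped. The other core subunit Uqcrc2 and the small subunits Uqcrq, Uqcr10, Uqcrb and Uqcr11 had log2 differences of 2.29, 2.25, 2.25, 2.13 and 2.07.

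Cyc1 encodes cytochrome c1, the heme subunit of complex III from which cytochrome c collects its electron. It had 1369, 1382 and 1244 CPM in iBAT and 1218, 1046 and 1316 in scBAT. The white values were 162, 282 and 148 CPM in iWAT and 208, 248 and 185 in eWAT. Brown and white libraries did not overlap, and the log2 difference was 2.62 ± 0.18 (edgeR adjusted p = 4.99e-07). Cycs, somatic cytochrome c itself, had 471, 508 and 458 CPM in iBAT, 451, 401 and 486 in scBAT, 72.0, 118 and 62.5 in iWAT, and 80.9, 98.5 and 73.6 for eWAT. Every brown library was above every white one, and the log2 difference was 2.46 ± 0.16 (adjusted p = 4.19e-07). Copies of Cycs elsewhere at 98% identity or more over at least 50 bases cover 34.2% of its transcript, and the same search found 62.8% for Uqcrb, 58.3% for Cox7c, 50.9% for Cox5b and 38.4% for Uqcr11. How the deposited counts treated reads that fit several places is not given in the sources used here, so the levels of these 5 genes are less certain.

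Of the 17 complex IV subunit genes, 15 were tested and 14 were higher in brown fat, with a median log2 difference of 2.08. Leaving the isoforms Cox7a1, Cox8b, Cox6a2, Cox4i2 and Cox6b2 aside, the 20 subunits of both complexes with Cyc1 and Cycs were all called higher, between 1.55 and 2.68 (median 2.15). Cox5a, a nuclear subunit on the matrix side, had the largest difference of these 20, 2.68 ± 0.15 (adjusted p = 1.7e-07). It had 765, 798 and 719 CPM in iBAT, 745, 635 and 792 in scBAT, 96.8, 155 and 95.5 in iWAT, and 109.5, 137 and 99.8 for eWAT. Cox7b, needed to assemble the complex, followed at 2.44, and Cox5b, the zinc-binding subunit, and Cox6c lay at 2.11 and 2.08.

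Per kilobase of the principal transcript, a scale on which genes can be set side by side, the most abundant members were Cox6a1, Cox4i1 and Cox8a. In iBAT they stood at 1971 ± 49.9, 1524 ± 64.9 and 1459 ± 59.7 CPM per kilobase (SD, n = 3). Cox8b reached 1203 ± 31.8 and Cox7a1 825 ± 47.7 in iBAT, which placed both among the common subunits. In eWAT, Cox8b stood at 63.8 ± 42.5 and Cox7a1 at 32.6 ± 21.1 CPM per kilobase, under every complex IV subunit of the 20 named above, the lowest of which in eWAT was Cox7b at 107.5 ± 16.2. Cox4i2, Cox6a2 and Cox6b2 were low in all depots, at 1.18 to 21.0 CPM per kilobase as depot means. The assembly factors ran in iBAT from 16.8 ± 0.669 CPM per kilobase for Cox18 to 204 ± 10.04 for Cox14, all under the lowest of the common complex IV subunits, Cox7c at 542 ± 20.3. Places on this scale depend on the length used. With all exons merged, Cox7c has 1131 bases in place of 540, and Cox7a1 stood at 606 CPM per kilobase in iBAT.

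**Figure D2:**
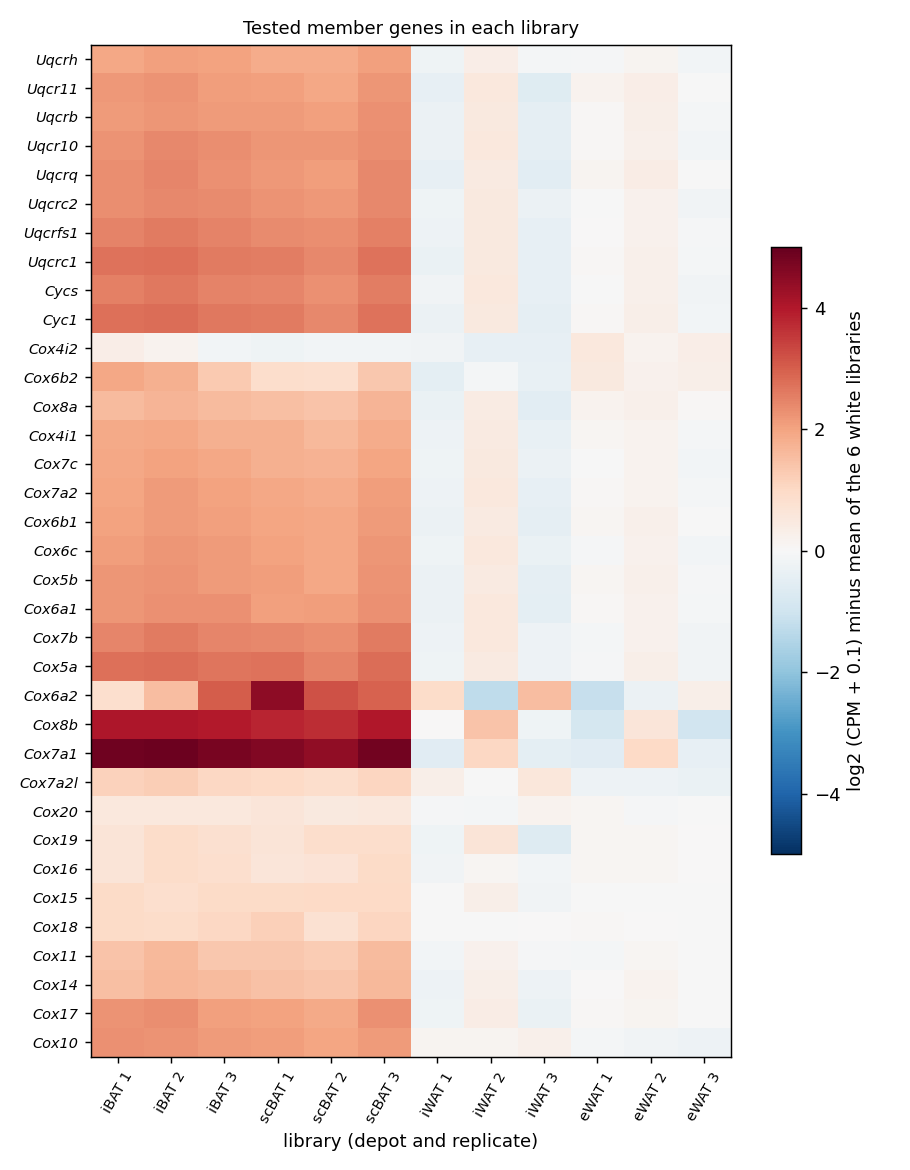
Level of each tested member in each library as log2 (CPM + 0.1) minus the mean of the 6 white libraries, with genes grouped by role. The 6 brown columns are red for nearly all genes and darkest for Cox7a1 and Cox8b, iWAT library 2 is the reddest iWAT column (29 of 35 members are highest there among iWAT libraries), and Cox4i2 shows no brown block.

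Cox7a1 was the member with the largest difference between brown and white fat. It had 329.9, 339 and 303 CPM in iBAT and 284, 247 and 323 in scBAT. White libraries had 7.70, 23.1 and 8.10 CPM in iWAT and 7.67, 22.4 and 8.40 in eWAT. Library 2 was the high one in both white depots, yet far below the lowest brown library, and the log2 difference was 4.56 ± 0.37 (edgeR adjusted p = 1.84e-06), a 23.7-fold level; without library 2 of both white depots it was 5.28, a 38.8-fold level. Its partner Cox7a2, the form made in most tissues, had 445, 487 and 447 CPM in iBAT, 427, 407 and 475 in scBAT, 94.9, 159.6 and 83.7 in iWAT, and 118, 127 and 105 for eWAT. Cox7a2 also did not overlap, but its log2 difference was 1.97 ± 0.15 (adjusted p = 1.3e-06), a 3.91-fold level.

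Within a library, the log2 ratio of Cox7a1 to Cox7a2 counts was -0.50 ± 0.06 (SD, n = 3) for iBAT, -0.62 ± 0.09 for scBAT, -3.26 ± 0.43 for iWAT and -3.36 ± 0.76 for eWAT. The ratio was 6.71-fold higher in brown fat, without overlap between the 6 brown and 6 white libraries (two-sided exact permutation test over 924 splits, p = 0.00216, the smallest this test can give, and 0.0036 after adjustment over 5 isoform pairs). Divided by transcript length, Cox7a1 made up 54.2% ± 1.11 of Cox7a1 plus Cox7a2 in iBAT and 52.1% ± 1.53 in scBAT, and for the white depots 15.1% ± 3.90 (iWAT) and 14.8% ± 6.98 (eWAT). These shares used a principal transcript of 393 bases for Cox7a1; with all its exons merged (535 bases) the shares were 46.5%, 44.5%, 11.6% and 11.4%, so whether Cox7a1 exceeded Cox7a2 in brown fat depended on the length used.

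Cox8b, the heart and muscle form of subunit 8, had 436, 442 and 420.2 CPM in iBAT and 374, 347 and 436 in scBAT. It had 26.9, 71.5 and 23.2 CPM in iWAT and 14.4, 40.6 and 13.9 in eWAT. Again white library 2 was highest in both depots without reaching the brown range, and the log2 difference was 3.74 ± 0.37 (edgeR adjusted p = 6.84e-06), a 13.4-fold level; without library 2 of both white depots it was 4.47, a 22.1-fold level. Cox8a, the common form, had 786, 840.1 and 781 CPM in iBAT, 732, 702 and 851 in scBAT, 207, 350.0 and 179 in iWAT, and 296, 308 and 271 for eWAT. Its log2 difference of 1.55 ± 0.16 (adjusted p = 9.39e-06) was the smallest of the 20 subunits outside the tissue isoforms.

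The log2 ratio of Cox8b to Cox8a averaged -0.89 ± 0.04 for iBAT, -0.98 ± 0.03 for scBAT, -2.73 ± 0.38 in iWAT and -3.85 ± 0.81 in eWAT. It was 5.11-fold higher in brown fat with no overlap (exact permutation test, p = 0.00216, adjusted 0.0036). As a share per length, Cox8b made up 45.2% ± 0.655 of the pair in iBAT, 43.6% ± 0.467 in scBAT, 19.0% ± 4.19 in iWAT, and 10.3% ± 5.60 for eWAT. The mean log2 ratio was 1.13 higher in iWAT than in eWAT, but with eWAT library 2 at -2.92 and iWAT libraries 1 and 3 at -2.94 and -2.95 the depots touched, and 3 libraries against 3 cannot give an exact p below 0.1.

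**Figure D3:**
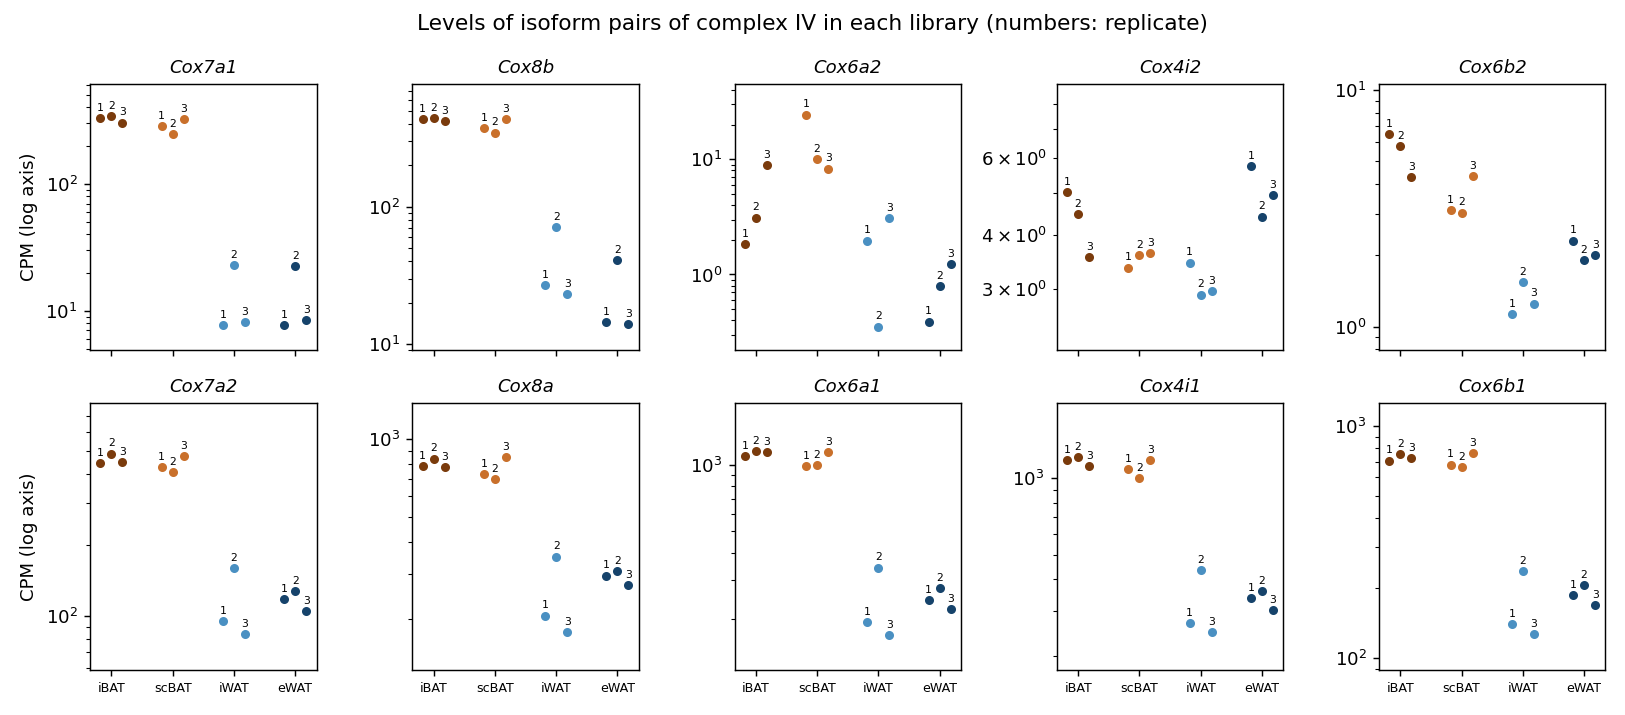
Levels in CPM (log axes that differ between panels) of the tissue isoforms (top) and of their common partners (bottom) in each library, numbered by replicate. Cox7a1 and Cox8b drop from 247 CPM or more in brown fat to 71.5 CPM or less in white fat, while Cox4i2 stays between 2.91 and 5.75 CPM in all 12 libraries.

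Cox6a2, the heart and muscle form of subunit 6a, was a low transcript with a pattern of its own. It had 1.83, 3.12 and 8.91 CPM in iBAT, 24.5, 9.97 and 8.31 in scBAT, 1.97, 0.352 and 3.06 in iWAT and 0.390, 0.793 and 1.22 in eWAT. Brown and white overlapped, since iBAT library 1 was below iWAT libraries 1 and 3, and the log2 difference was 2.74 ± 0.57 (edgeR adjusted p = 0.00145), or 3.92 without iWAT libraries 1 and 3. Its partner Cox6a1 had 1094, 1148 and 1135 CPM in iBAT, 983, 996 and 1139 in scBAT, 194, 342 and 169 in iWAT, and 244, 276 and 222 for eWAT, for a log2 difference of 2.16 ± 0.17 (adjusted p = 1.48e-06) with no overlap. The log2 ratio of Cox6a2 to Cox6a1 was 0.60 higher in brown fat, which did not pass (exact permutation test, p = 0.474), and brown and white ratios overlapped. It ran from 0.21, without scBAT library 1 or iWAT library 2, to 1.02, without iWAT library 3, when single libraries were left out.

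The order of the libraries by Cox6a2 followed that of the skeletal muscle markers outside iWAT. The summed muscle markers were 579, 842 and 2483 CPM in libraries 1 to 3 of iBAT, 7450, 2583 and 2254 in scBAT and 149, 193 and 311 in eWAT, and within each of these depots the libraries had the same order by Cox6a2. In iWAT the muscle sums were 140, 126 and 77.9 CPM, and Cox6a2 was instead highest in libraries 3 and 1, which carried the B cell and T cell markers. Cox6a2 shares 70 exon bases, 10.3% of its exons, with Itgad on the opposite strand, and Itgad stood at 1.05, 0.264 and 0.988 CPM in iWAT and at most 0.382 elsewhere. The part of muscle, lymphocytes or Itgad reads in the Cox6a2 values was not tested. All 16 muscle markers were called higher in brown fat (median log2 difference 3.99), beside 31.3% of all tested genes. In 14 of them every brown library lay above every white one, beside 23.3% of all tested genes. Myh7 was at 0.856, 2.61 and 11.1 CPM in iBAT. In scBAT it was at 0.0621 to 0.168 CPM, inside the white range of 0 to 0.428 CPM. Over the 6 brown libraries the muscle sums ran from 579 to 7450 CPM, Cox7a1 from 247 to 339 CPM and Cox8b from 347 to 442 CPM, and the part of muscle in the Cox7a1 and Cox8b levels was not tested.

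**Figure D4:**
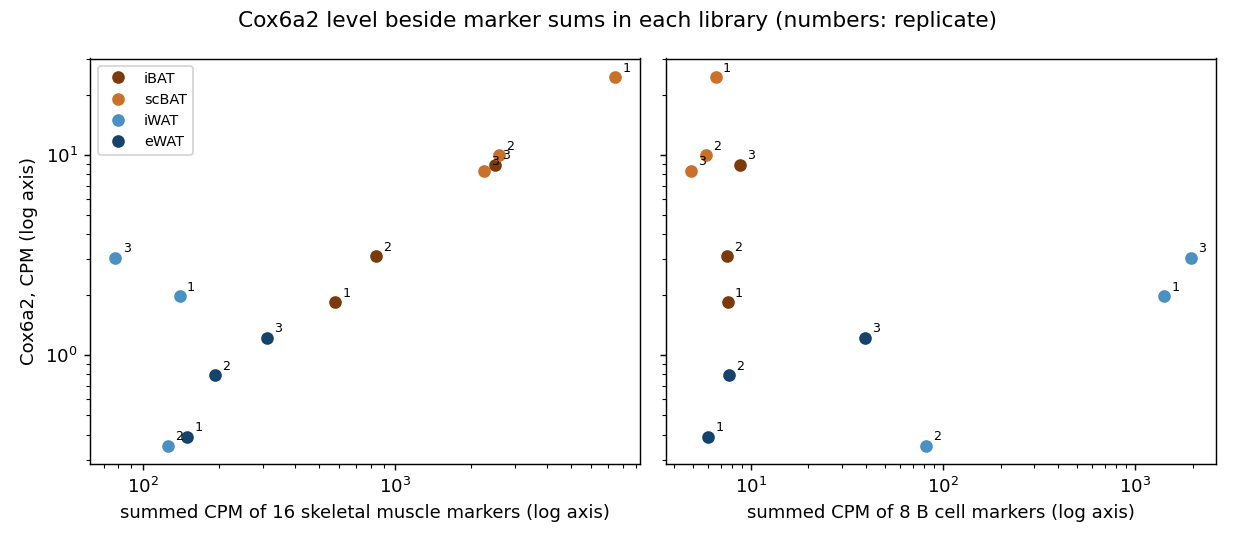
Cox6a2 level in each library against the summed level of 16 skeletal muscle markers (left) and of 8 B cell markers (right), all in CPM on log axes. On the left the iBAT, scBAT and eWAT points run upward from 0.390 to 24.5 CPM, and iWAT libraries 1 and 3 lie above that run; on the right these same 2 libraries have 1423 and 1950 CPM of B cell markers.

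Cox4i2, the lung and hypoxia form of subunit 4, was the tested member that did not differ by the test between brown and white fat. It had 5.01, 4.46 and 3.55 CPM in iBAT, 3.35, 3.59 and 3.62 in scBAT, 3.45, 2.91 and 2.96 in iWAT, and 5.75, 4.40 and 4.92 for eWAT. The log2 difference was -0.02 ± 0.14 (edgeR adjusted p = 0.929), and its sign turned with another scaling. Cox4i1, the common form, had 1177, 1209 and 1112 CPM in iBAT, 1085, 997 and 1173 in scBAT, 270.2, 436 and 249 in iWAT, and 339, 359.5 and 303 for eWAT, a log2 difference of 1.79 ± 0.15 (adjusted p = 1.78e-06). Within libraries, the log2 ratio of Cox4i2 to Cox4i1 was lower in brown fat by 1.82, from -8.33 to -7.87 in brown and from -7.22 to -5.88 in white libraries, with no overlap (exact permutation test, p = 0.00216, adjusted 0.0036).

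Cox6b2, the testis form of subunit 6b, had 6.48, 5.80 and 4.26 CPM in iBAT, 3.11, 3.03 and 4.31 in scBAT, 1.13, 1.54 and 1.25 in iWAT and 2.31, 1.90 and 2.01 in eWAT. No white library reached a brown one, and the log2 difference was 1.41 ± 0.17 (edgeR adjusted p = 3.62e-05). Cox6b1, the common form, had 708, 758 and 725 CPM in iBAT, 681, 666 and 764 in scBAT, 140.4, 237 and 126 in iWAT, and 186, 207 and 169.5 for eWAT, with a log2 difference of 2.02 ± 0.15 (adjusted p = 1.15e-06). The ratio of Cox6b2 to Cox6b1 was lower in brown fat by 0.65 on the log2 scale, with overlap between brown and white libraries (exact permutation test, p = 0.0173, adjusted 0.0216). The other testis forms were not expressed at a testable level: Cox7b2 had 0 counts in all 12 libraries and Cox8c had 1 count, in eWAT library 3. A count of 0 allows up to 3 counts, 0.103 to 0.175 CPM by library, which covers counting error only. The 7 testis germ cell markers summed to at most 0.428 CPM in any library.

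**Figure D5:**
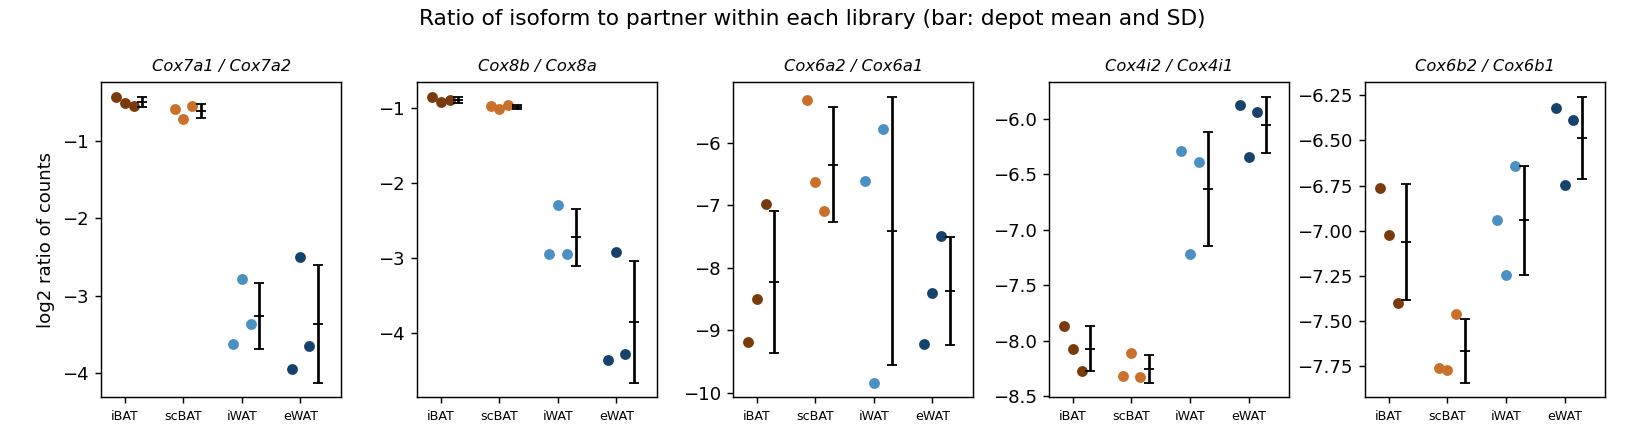
Log2 ratio of tissue isoform to common partner counts within each library, with depot mean and SD; the vertical axes differ between panels. For Cox7a1 and Cox8b every brown library is above every white library, for Cox4i2 every brown library is below, and for Cox6a2 and Cox6b2 the brown and white libraries overlap.

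The 9 assembly factors of complex IV were all called higher in brown fat, with log2 differences of 0.53 to 2.15 (median 0.996), and 4 of the 9 reached a 2-fold difference. Cox10, which adds the farnesyl tail in heme A synthesis, had 85.7, 83.1 and 77.1 CPM in iBAT and 74.7, 68.0 and 77.7 in scBAT. It had 19.2, 19.3 and 21.0 CPM in iWAT and 16.4, 15.5 and 14.5 in eWAT, for a log2 difference of 2.15 ± 0.07 (edgeR adjusted p = 1.87e-08) with tight replicates and no overlap. Cox17, the copper chaperone that supplies the complex IV copper centres, had 201, 209.7 and 175 CPM in iBAT, 171, 156 and 204 in scBAT, 36.4, 54.2 and 33.9 in iWAT, and 44.3, 46.6 and 41.5 for eWAT. Its libraries did not overlap and its log2 difference was 2.12 ± 0.13 (adjusted p = 2.27e-07).

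Cox15, which completes heme A after Cox10, had a log2 difference of only 0.94. Cox11, which delivers copper, and Cox14, an early factor for the mitochondrially encoded subunit 1, lay at 1.44 and 1.52. Cox18, an insertase for subunit 2, and Cox16 lay at 0.996 and 0.79. Cox19 had a log2 difference of 0.74 ± 0.18 (adjusted p = 0.0038), and its libraries overlapped because iWAT library 2 reached 63.8 CPM beside 63.3 in scBAT library 1. Cox20, a chaperone of subunit 2, had the smallest difference, 0.53 ± 0.07 (adjusted p = 3.59e-05). It had 57.8, 56.4 and 56.5 CPM in iBAT, 60.8, 55.7 and 57.2 in scBAT, 37.8, 37.2 and 44.3 in iWAT and 42.0, 37.6 and 38.9 in eWAT, and brown and white libraries did not overlap. Cox20 shares 83.2% of its exon bases with Hnrnpu on the opposite strand, Cox11 48.3% with Tom1l1, Cox5a 41.7% with Gm26631, Uqcrc2 26.6% with Pdzd9 and Cox4i1 20.1% with Emc8, and Cox16 shares 77.5% with Gm20498 on its own strand. The strand setting of the counting is not given in the sources used here, so these levels may hold reads of, or lack reads shared with, the other gene.

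Cox7a2l is related to subunit 7a but joins complex III to complex IV in supercomplexes, and C57BL/6 mice are known for carrying a shortened form of the protein. Its log2 difference between brown and white fat was 1.05 ± 0.10 (edgeR adjusted p = 5.7e-06). It had 288, 301 and 263 CPM in iBAT, 254, 237 and 267 in scBAT, 158, 125 and 192 in iWAT, and 108, 107 and 102 for eWAT. The brown libraries were highest and did not overlap the white ones, and the 3 iWAT libraries were all above the 3 eWAT libraries.

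Genes outside the symbol rule that build or complete the same complexes moved the same way. Of 30 such genes in the table, 26 were tested and 26 were called higher in brown fat and 0 lower, with log2 differences of 0.52 to 2.49 (median 1.40). Lyrm7, a chaperone of the Rieske protein, had a mean of 29.5 ± 1.78 CPM in iBAT (SD, n = 3), 25.6 ± 1.53 in scBAT, 5.77 ± 0.933 in iWAT, and 4.17 ± 0.156 for eWAT, and a log2 difference of 2.49. Hccs, which attaches heme to cytochromes c and c1, had a log2 difference of 1.73, with 61.8 to 84.4 CPM in brown and 18.9 to 24.5 CPM in white libraries. Lrpprc, which stabilises mitochondrial messenger RNA, and the complex IV factor Cmc2 had log2 differences of 2.02 and 1.91. The 3 complex IV subunits and cytochrome b that mitochondrial DNA encodes were not analysed here. The genes with Nduf symbols, taken by symbol and mostly of complex I, had a median log2 difference of 2.07, with 35 of 36 tested called higher. They include Ndufa4, a complex IV subunit that is also among the 26 genes above. The Atp5 genes of ATP synthase had a median of 1.73, with 15 of 17 called higher and 1 lower. The exceptions, named after their values were seen, were Ndufa4l2, not called at 0.27, and Atp5g1, a gene for the ring subunit c of ATP synthase, lower at -1.11; Atp5g3, another subunit c gene, was not called.

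Each brown depot was also set against each white depot. These 4 comparisons share libraries, so their counts are given side by side and lend each other no support. iBAT against iWAT called 33 of the 35 members higher, beside 63.0% of all tested genes called in either direction and 27.9% higher. iBAT against eWAT called 34 higher, beside 53.7% and 26.2%. scBAT against iWAT called 34 higher, beside 61.6% and 28.1%. scBAT against eWAT called 34 higher and 1 lower, beside 51.9% in either direction, 26.0% higher and 25.8% lower. The members not called higher were Cox4i2 in all 4 comparisons and Cox6a2 in iBAT against iWAT (log2 difference 1.35 ± 0.78, edgeR adjusted p = 0.151). The 1 lower call was Cox4i2 in scBAT against eWAT, at -0.51 ± 0.20 (adjusted p = 0.0481), just past the threshold. It was lost without iBAT library 1 or 2, iWAT library 1, or any single scBAT or eWAT library, which is 9 of the 12 libraries left out in turn, with no filter on low counts, and with the replicate number as a block.

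Between the brown depots, 0 of the 35 members were called by edgeR in scBAT against iBAT, where 0.329% of all tested genes were called, 0.235% higher and 0.094% lower. DESeq2 and limma-voom also called 0, and 1 member had an unadjusted p under 0.05: Cox6b2, with a log2 difference of -0.66 ± 0.24 (unadjusted p = 0.0193, adjusted p = 0.589). The mean was higher in iBAT for 29 of the 35, by little: the median log2 difference was -0.10, and scBAT library 2 was the lowest scBAT library for 29 of the 35 members, beside 35.0% of all tested genes. Cox6a2 had the largest difference, 1.62 ± 0.76 toward scBAT (adjusted p = 0.901). For Cox7a1 the difference was -0.19 ± 0.45 and for Cox8b -0.17 ± 0.46, standard errors that do not exclude a modest difference. The edgeR fit pooled the spread of each gene over all depots, so these standard errors also carry spread between white libraries. Cox7a1 had 324 ± 18.7 CPM (SD) in iBAT and 285 ± 38.3 in scBAT, beside 13.0 ± 8.76 in iWAT and 12.8 ± 8.30 in eWAT. The edgeR count of 0 called used the same pooled spread, and its part in that count was not tested.

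Between the white depots, 2 members were called higher and 1 lower in iWAT against eWAT, where 28.7% of all tested genes were called, 17.7% higher and 11.0% lower. Cox7a2l was higher in iWAT by 0.58 ± 0.14 (edgeR adjusted p = 0.017) and Cox10 by 0.36 ± 0.09 (adjusted p = 0.0203). Cox4i2 was lower by 0.69, with a log2 difference of -0.69 ± 0.20 (adjusted p = 0.0274). In all 3, the libraries of the depots did not overlap, which lends no further support for genes picked by this same test. The share of all tested genes without overlap between these depots is not given here. Cox7a1 (0.01 ± 0.47) and Cox8b (0.82 ± 0.47, adjusted p = 0.192) were not called. These counts rested on single libraries: the number called was 21, with 2 higher and 19 lower, without iWAT library 2, and 0 or 1 without any other single iWAT or eWAT library, with 0 without iWAT library 1, eWAT library 1 or eWAT library 3.

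iWAT library 2 stood apart for most members. It was the highest of the iWAT libraries for 29 of the 35 members, beside 46.6% of all tested genes, and the highest of all 6 white libraries for 27. The exceptions within iWAT were Cox10, Cox18, Cox20, Cox4i2, Cox6a2 and Cox7a2l. eWAT library 2 was the highest eWAT library for 27 of the 35, beside 33.1% of all tested genes. Over the 20 subunits outside the tissue isoforms, the median coefficient of variation was 36.0% in iWAT, 11.8% in eWAT, 9.46% in scBAT and 4.59% in iBAT. Over 10112 genes with a mean of at least 10 CPM it was 23.4%, 6.47%, 7.65% and 7.25%. The 6 adipocyte markers shared by brown and white fat summed to 5432, 9082 and 3537 CPM in iWAT libraries 1 to 3. The 6 brown adipocyte markers summed to 105, 308 and 124 CPM in iWAT and 71.9, 221 and 77.0 in eWAT, so their sum was highest in library 2 of both white depots. Of these, Dio2 was not highest there in iWAT, at 1.34, 1.10 and 0.823 CPM. The 6 white adipocyte markers were also highest in iWAT library 2, with sums of 2384, 4155 and 1194 CPM. In eWAT their sum was lowest in library 2, at 4442, 3758 and 4162 CPM, while Hoxc9 and Retn were lowest in library 3. Ucp1 stood at 32.0 CPM in iWAT library 2 and 87.7 CPM in eWAT library 2. The part of these markers and of the lymphocyte markers of iWAT libraries 1 and 3 in the members' levels was not tested.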

How the data were processed

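Total RNA libraries (TruSeq) of 12 adipose samples were analysed. The deposited table holds raw counts, whole numbers of reads per gene symbol. The submitters' processing notes name HTSeq 0.6.1p1, Picard 1.119, STAR 2.4.2a, bcl2fastq 1.8.3, edgeR and build mm10, without roles; annotation, strand setting and handling of multiply placed reads are not given in the sources used here. All columns were used.

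Genes passing filterByExpr of edgeR 4.0.16 (R 4.3.3) on depot, 14898 with at least 99.7% of each library's counts, were tested with the quasi-likelihood F test, TMM scaling, 1 mean per depot, 8 residual degrees of freedom and Benjamini-Hochberg adjustment over all tested genes (threshold 0.05). The script was tested on simulated data. Isoform ratios (counts plus 0.5) were compared by exact permutation over libraries. Positions and lengths came from GENCODE M21 on GRCm38, promoters from RefSeq, and near-identical copies from BLAST 2.17.0. Alternatives were DESeq2 1.42.0, limma-voom (limma 3.58.1), other scalings, no filter, a replicate block and left-out libraries.

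Members and lists were chosen with earlier results of these data known. Named library by library were isoform pairs, the 2 largest and the smallest difference of each role, and members not called or called within brown or white. The 4 other pathway genes with the smallest adjusted p were named with means, ranges or log2 differences. Cox5a, Cox19, Ndufa4l2, Atp5g1 and Atp5g3 were added after their values were seen.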

Additional observations from a re-analysis of the deposited data

How the results depend on the processing

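Of 700 log2 differences between brown and white fat (35 members under 20 alternatives), 693 kept their direction and their side of the threshold; the other 7 were all of Cox4i2, whose difference of -0.02 became 0.0012 with DESeq2 size factors, 0.0008 with DESeq2, 0.044 without iWAT libraries 1 and 3, and -0.0654 to 0.0556 when single libraries were left out, so no direction holds for it. In size, 3 of the 693 moved by more than 1.5 times: without iWAT library 2 and eWAT library 2, Cox7a1 and Cox8b went from 4.56 to 5.28 and from 3.74 to 4.47, and without iWAT libraries 1 and 3, Cox6a2 went from 2.74 to 3.92. The median over all tested genes was -0.11 with TMM, -0.09 with DESeq2 size factors and -0.17 with upper quartile scaling. The count of members called between brown and white fat was 34 without any single library. In iWAT against eWAT (3 called) it ran from 0 to 21 when single libraries were left out, was 6, all higher, without iWAT libraries 1 and 3, where the lone iWAT library is assumed to vary like the other groups, and 20, 3 higher and 17 lower, without iWAT library 2 and eWAT library 2, which was added after the data were seen. The calls of Cox7a2l, Cox10 and Cox4i2 between the white depots kept their direction, missed the threshold in 16 values in all, most of them with single libraries left out, and did not pass without iWAT libraries 1 and 3, at 0.26 (edgeR adjusted p = 0.163), 0.34 (0.114) and -0.77 (0.148). Without iWAT library 2 and eWAT library 2 the log2 ratio of Cox6a2 to Cox6a1 in brown against white fat turned from 0.60 to -0.0159 (exact permutation p = 0.986); with single libraries left out it ran from 0.21 to 1.02, and it was 1.45 (p = 0.11) without iWAT libraries 1 and 3. The cause of these changes was not tested.

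Nothing in the labels says that equal replicate numbers share an animal. The correlations between same-numbered libraries ran from -0.184 to 0.234 (other pairs -0.27 to 0.337). With 3 libraries per depot that also differ in marker levels, they cannot decide whether equal numbers share an animal. With the replicate number as a block, 34 members were called higher in brown fat, 0 in scBAT against iBAT, 3 in iWAT against eWAT, and 33, 34, 34 and 34 in the other depot pairs; the lower call of Cox4i2 in scBAT against eWAT was lost, as it was with no filter and without 9 of the 12 single libraries. The Cox7a1, Cox8b and Cox4i2 ratios had an exact p of 0.00926 with labels permuted within a number, and the Cox6a2 and Cox6b2 ratios 0.463 and 0.037. Depth limits Cox6a2, Cox4i2 and Cox6b2 most, since each lay under 25 CPM in every library.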

Other observations

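Other markers also differed between the libraries, and their part in the members' levels was not tested. The 6 white adipocyte markers summed to 1194 to 4442 CPM in white libraries, lowest in iWAT libraries 3 and 1, and to 213 to 603 CPM in brown ones. The 6 macrophage markers summed to 531 to 753 CPM in white and 103 to 219 CPM in brown libraries, with scBAT (196 to 219) above iBAT (103 to 128). Crisp1, from a list of 6 epididymis markers, stood at 177, 451 and 43.3 CPM in scBAT libraries 1 to 3. It stood at 36.8 CPM in eWAT library 2 and at most 11.6 CPM in every other library. The rest of the list did not follow Crisp1. Lcn5 and Cst11 had no count, and Defb20 and Spink13 had none in scBAT. Rnase10 was at 0.190 to 0.311 CPM in scBAT and 0.690 to 1.11 CPM in eWAT. The list as a whole therefore did not mark the scBAT libraries. scBAT library 2, highest for Crisp1 at 450.7 CPM, was also the lowest scBAT library for 29 of the 35 members tested, beside 35.0% of all tested genes.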
